A study of Mus musculus with 14 samples.

Results

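The Cyp2b family was followed in mouse liver from weaning to young adulthood through its 5 protein-coding genes, Cyp2b9, Cyp2b10, Cyp2b13, Cyp2b19 and Cyp2b23. Members were found through the RefSeq accession of each array probe. Each of the 5 genes had 1 probe, among 39429 probes that stood for 19751 named genes. Liver RNA came from male (M) and female (F) CD-1 mice aged 3, 4 or 8 wk (M3, F3, M4, F4, M8 and F8), for which the labels give no treatment, genotype or mutant allele. Every pool combined RNA of 5 mice (3 wk) or 6 mice (4 and 8 wk), so the values describe pools and not single animals. Pairs of pools were hybridized together on 14 Agilent 2-colour arrays in 7 comparisons, of the sexes at one age (M3/F3, M4/F4 and M8/F8) or of 8 wk with a younger age (M8/M3 and M8/M4 in males, F8/F3 and F8/F4 in females). The 2 arrays of each had separate pools and exchanged dyes.

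CYP2B enzymes are membrane-bound monooxygenases of the endoplasmic reticulum. They hydroxylate drugs, steroids and other lipophilic compounds with electrons from cytochrome P450 reductase. Cyp2b10 is the classic target of the constitutive androstane receptor CAR, a nuclear receptor that phenobarbital activates. Cyp2b9 and Cyp2b13 are known as female-biased genes of mouse liver under the control of the pituitary growth hormone pattern, whose sex difference appears at puberty. Cyp2b19 is known as a keratinocyte enzyme of the skin.

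Between 55.2% and 77.2% of spots in a channel were well above background, a test of the scanner software against the local background. Hepatocyte markers were bright, with median signals of 163000 for albumin (Alb) and 114000 for transthyretin (Ttr). The methods name the opposite dyes for the first comparison from those in the labels, and the labels were followed. On all 6 sex arrays the ratios of 4 Y-linked genes were above 1 and that of Xist was below 1 in this orientation. Same-numbered pools seem to be shared by several arrays. Over 21650 probes, which are not independent of each other, the differences between replicates of 2 comparisons with a group in common correlated with the sign that a shared pool gives in 10 of 10 pairs of comparisons (size of r 0.145 to 0.679), against r of -0.291 to 0.219 in the 11 pairs with no group in common.

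The sequences upstream of the 3 members that gave a signal are shown first, because Cyp2b9 and Cyp2b13 were nearly identical there. In the RefSeq promoter windows of GRCm38.p6, which span 250 bases before to 50 bases after a start site, Cyp2b9 and Cyp2b13 were identical at 298 of 300 bases. The differences are T48C and C104T, with the Cyp2b9 base first and positions counted from 1 at the 5′ end of the window. Capitals mark these positions in the first 143 bases of both windows, on the plus strand of chr7:26173159-26173301 and chr7:26061245-26061387.
Cyp2b9: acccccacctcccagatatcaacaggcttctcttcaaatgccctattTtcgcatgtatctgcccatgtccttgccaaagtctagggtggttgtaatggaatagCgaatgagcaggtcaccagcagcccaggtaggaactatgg
Cyp2b13: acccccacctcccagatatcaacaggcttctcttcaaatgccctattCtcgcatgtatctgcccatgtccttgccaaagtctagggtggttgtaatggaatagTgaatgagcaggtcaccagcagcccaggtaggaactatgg

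The Cyp2b10 window shared 77.2% of 289 aligned bases with either of these, and 85.1% of 261 aligned bases with the Cyp2b23 window. Capitals in the 250 bases before the Cyp2b10 start, chr7:25897408-25897657 on the plus strand, mark the letters of the C/EBP motif TTGCNNAA. C/EBP proteins are transcription factors of hepatocytes.
Cyp2b10: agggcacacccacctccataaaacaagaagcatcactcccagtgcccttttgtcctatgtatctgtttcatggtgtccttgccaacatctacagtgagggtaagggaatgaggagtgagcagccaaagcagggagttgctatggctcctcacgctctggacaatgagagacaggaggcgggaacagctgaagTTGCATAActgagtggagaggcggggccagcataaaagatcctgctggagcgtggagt

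All 5 member windows held TTGCNNAA on either strand, against 10.8% of 32851 windows. The match was TTGCATAA in Cyp2b10, Cyp2b19 and Cyp2b23, at positions 193, 211 and 166 of their windows. Cyp2b9 and Cyp2b13 matched with TTGCCAAA at position 71, and held TTGTATAA at position 192. The start site of the Cyp2b9 and Cyp2b13 windows lies inside the gene as RefSeq places it, so TTGTATAA falls within the annotated gene in both. The other 3 windows use the annotated gene start. The STAT5 motif TTCNNNGAA, in 8.3% of all windows, and the FoxA motif TGTTTAC, in 3.65%, were in none of the 5. The motifs were chosen after the sequences had been seen, and a match of letters is not a measured binding site.

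The probe sequences were at hand for the same 3 genes. The Cyp2b9 probe is given whole, and the first 30 of 60 bases are given of the others.
Cyp2b9 probe: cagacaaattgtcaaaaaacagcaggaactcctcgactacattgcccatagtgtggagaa
Cyp2b10 probe: cacttatcagctctccatgatctgggatct
Cyp2b13 probe: agagctgctggaaactagactgtatgttgc

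The 3 probes shared runs of at most 6 bases with each other, and at most 24 of 60 bases matched at any ungapped offset. Whether a probe also binds the transcript of another member, or of the Cyp2b pseudogenes of the cluster, was not tested. Each value below is the signal of 1 probe.

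Cyp2b9, Cyp2b10 and Cyp2b13 were well above background in both channels of all 14 arrays. None was called between the sexes at 3 wk (0.464% of all bright probes called), and all 3 were called lower in male than in female liver at 4 wk (1.44%) and 8 wk (6.31%). They were also called higher in F8 than in F3 (10.8%) and lower in M8 than in M3 (16.8%) or M4 (10.1%), where a call means an adjusted p below 0.05 and a ratio over 1.5-fold. Once the reuse of pools entered the covariance of the fit, 0 members were called in M4/F4 (1.3%) and only Cyp2b13 in F8/F3 (9.36%), whereas all 3 stayed called in M8/F8, M8/M3 and M8/M4. Cyp2b19 and Cyp2b23 gave no ratio that could be used. In these bulk samples, fewer cells of a type and less RNA per cell cannot be told apart.

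**Figure D1:**
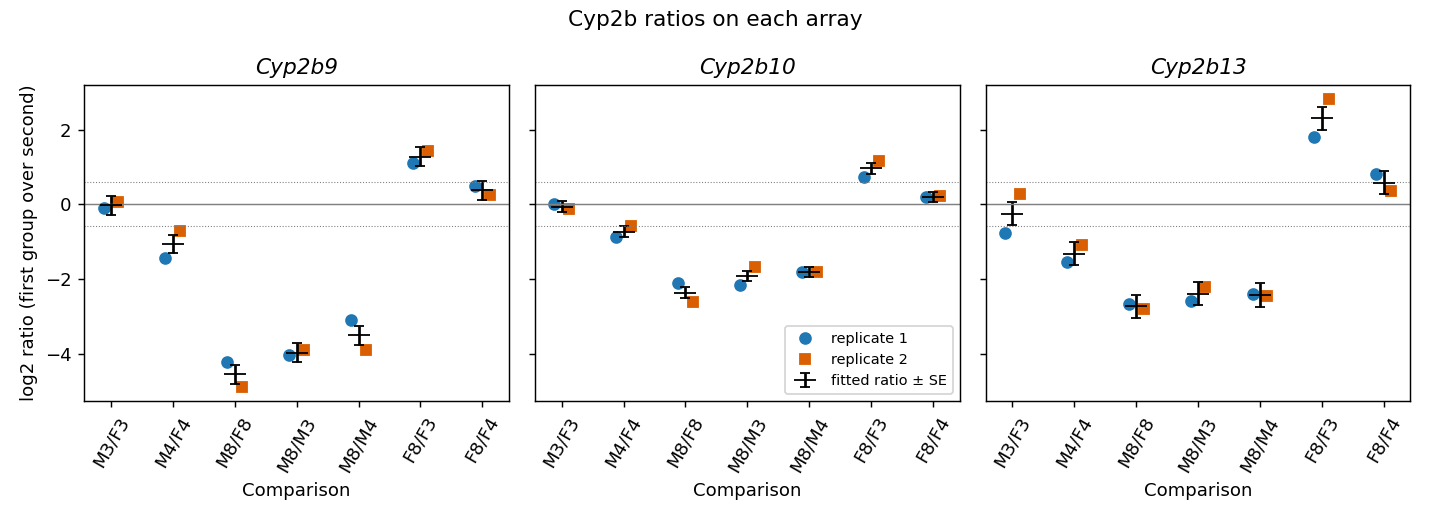
Log2 ratio of Cyp2b9, Cyp2b10 and Cyp2b13 on each array, by comparison. Circles and squares are replicates 1 and 2, black bars are the fitted ratio ± SE, and dotted lines mark 1.5-fold; in M3/F3 Cyp2b9 and Cyp2b10 lie near 0 and Cyp2b13 at -0.77 and 0.28, and all 3 genes lie below 0 in the other comparisons that have a male group first, and above 0 in F8/F3.

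At 3 wk the male over female log2 ratio of Cyp2b9 was -0.11 and 0.061 on the 2 arrays. That of Cyp2b10 was 0.004 and -0.12. For Cyp2b13 the arrays disagreed in sign, at -0.77 and 0.28. None of the 3 bright members was called in M3/F3 by limma, where 0.464% of probes bright enough were called (adjusted p below 0.05 and over 1.5-fold). Of the bright members 0 had an unadjusted p under 0.05, and the error-weighted average called 0. The 95% interval of the ratio ran from -0.62 to 0.58 for Cyp2b9, from -0.4 to 0.28 for Cyp2b10 and from -0.99 to 0.5 for Cyp2b13, so differences of up to about these sizes could not be seen.

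At 4 wk the male pool read lower on both arrays for each of the 3 genes. The log2 ratios were -1.43 and -0.7 for Cyp2b9. They were -0.88 and -0.59 for Cyp2b10. They were -1.55 and -1.09 for Cyp2b13. All 3 genes were called, at 47.8%, 60.3% and 40% of the female signal (adjusted p = 0.0342, 0.0164 and 0.0342, limma), while 1.44% of bright probes were called in M4/F4. These calls were lost when the reuse of pools was put into the covariance (adjusted p = 0.126 to 0.18, with 1.3% of bright probes called), when p-values were adjusted within the comparison, and without replicate 1 of M4/F4 (0 members in each case). With 6 group means in place of 7 comparisons Cyp2b13 was not called (-1.04, adjusted p = 0.122), and with the replicate number as a block Cyp2b9 was not. Cyp2b10 alone stayed called with the slide as a block, and without M4/F4 replicate 2, either replicate of M8/M3 or either replicate of F8/F4. Without any other single array 2 members were called.

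At 8 wk Cyp2b9 gave the lowest male over female ratio of the family. The log2 ratios were -4.22 and -4.88 for Cyp2b9, -2.11 and -2.62 for Cyp2b10, and -2.66 and -2.8 for Cyp2b13. Within an array, the log2 ratio of Cyp2b9 minus that of Cyp2b10 was -2.11 and -2.26. The fitted ratios of -4.55 ± 0.252 (SE), -2.36 ± 0.142 and -2.73 ± 0.313 correspond to 23.4-fold, 5.15-fold and 6.64-fold lower signals in male liver (adjusted p = 0.000189, 0.000239 and 0.00218). All 3 were called, with a background of 6.31% of bright probes in M8/F8. Cyp2b9 ranked 19 from the lowest of 23296 probes, Cyp2b13 ranked 52 and Cyp2b10 ranked 65. The Cyp2b13 fold and rank depend on the arrays: its M8 signal averaged 2.34 log2 units higher on the M8/F8 arrays than on the others that carried M8 RNA, and its M8/F8 ratio was -3.49 with 6 group means. Obtained through the 3 wk arrays (M8/M3 plus M3/F3 minus F8/F3), the 2 values were -5.14 and -4.74 for Cyp2b13 and -5.26 and -5.28 for Cyp2b9, so the lead of Cyp2b9 over Cyp2b13 was much smaller by that route.

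In male liver the 3 genes were lower at 8 wk than at 4 wk on the arrays that compared these ages. For Cyp2b13 the size of the fall depended on the arrays. Its M8 signal was 2340 and 1620 on the M8/F8 arrays, which was not below the M3 pools at 1720 and 1560. The M4 pools were at 2240 and 4230. With 6 group means, which draw on all arrays, its log2 ratio was -1.91 in M8/M3 and -2.15 in M8/M4. The M8/M3 log2 ratios were -4.04 and -3.91 for Cyp2b9, -2.17 and -1.67 for Cyp2b10, and -2.58 and -2.21 for Cyp2b13. Fitted ratios placed M8 at 6.37%, 26.4% and 19% of the M3 signal (adjusted p = 0.000282, 0.000449 and 0.00359). M8/M4 gave -3.09 and -3.91 for Cyp2b9, -1.82 and -1.8 for Cyp2b10, and -2.4 and -2.46 for Cyp2b13, or 8.82%, 28.5% and 18.6% of the M4 signal. The 3 members were called lower in both comparisons, in which 16.8% and 10.1% of bright probes were called in either direction. M8 pools are in both comparisons and in M8/F8, so the 3 sets of values are not independent. Between 3 and 4 wk in males 0 members were called by limma (M4/M3, 0.231% of bright probes called), 0 had an unadjusted p under 0.05, and 0 were called by the error-weighted average, with a fitted log2 difference of -0.47 for Cyp2b9, -0.11 for Cyp2b10 and 0.033 for Cyp2b13. The Cyp2b9 value was -0.059 without M8/M4 replicate 1 and -0.88 without M8/M4 replicate 2.

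In female liver the direction was the opposite. F8/F3 gave log2 ratios of 1.11 and 1.43 for Cyp2b9, 0.74 and 1.17 for Cyp2b10, and 1.79 and 2.81 for Cyp2b13. The fitted rises were 2.41-fold, 1.94-fold and 4.92-fold (adjusted p = 0.0178, 0.00584 and 0.00421), and 10.8% of bright probes were called in F8/F3. Cyp2b13 ranked 40 from the highest of 26071 probes. With the shared pools in the covariance only Cyp2b13 was still called (adjusted p = 0.0199, with 9.36% of bright probes called), against 0.0747 for Cyp2b9 and 0.0826 for Cyp2b10. Without replicate 2 of F8/F3, again only Cyp2b13 was called. Its log2 ratio of 2.3 became 1.66 without that array and 2.93 without F8/F3 replicate 1. Cyp2b9 lost its call without replicate 1 (adjusted p = 0.0584) and with the slide as a block (0.0553).

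From 4 to 8 wk in females the ratios were above 1 on both arrays but small, with log2 values of 0.49 and 0.26 for Cyp2b9, 0.19 and 0.21 for Cyp2b10, and 0.81 and 0.36 for Cyp2b13. By limma 0 members were called in F8/F4, where 5.41% of bright probes were; 0 had an unadjusted p under 0.05, and the error-weighted average called 0. The intervals reached 0.98, 0.54 and 1.33. The fitted F4/F3 differences were 0.89 ± 0.357 (SE) for Cyp2b9, 0.75 ± 0.201 for Cyp2b10 and 1.71 ± 0.443 for Cyp2b13, and none was called by limma (adjusted p = 0.24 to 0.458, with 0.0916% of bright probes called), although all 3 had an unadjusted p under 0.05. The Cyp2b13 difference was 2.35 without F8/F3 replicate 1 and 1.08 without F8/F3 replicate 2. By the error-weighted average, which uses the deposited errors and an unadjusted p below 0.0001, Cyp2b9 and Cyp2b13 were called in F4/F3, as were 0.935% of bright probes.

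Levels of the 12 pools put these ratios in order for each probe. For Cyp2b9 the normalized signal averaged 508 in M8, 5630 in M4, 6290 in M3, 6280 in F3, 11800 in F4 and 15200 in F8. The pools of M4, M3 and F3 overlapped, whereas M8 lay below all others and F4 and then F8 above them. Cyp2b10 had the same shape, from 5120 in M8 through 16000 in M3, 17100 in M4 and 18000 in F3 to 30500 in F4 and 36300 in F8. Here again only the M3, M4 and F3 pools overlapped. For Cyp2b13 the means were 659 in M8, 1640 in M3, 2320 in F3, 3080 in M4, 8860 in F4 and 13000 in F8, and the F3 pools, at 3630 and 1470, spanned those of M3 and overlapped those of M4. The SD of log2 signal between the 2 pools of a group ran from 0.0157 (F4) to 0.576 (M4) for Cyp2b9, from 0.00077 (F4) to 0.388 (M4) for Cyp2b10, and from 0.0935 (M3) to 0.92 (F3) for Cyp2b13.

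**Figure D2:**
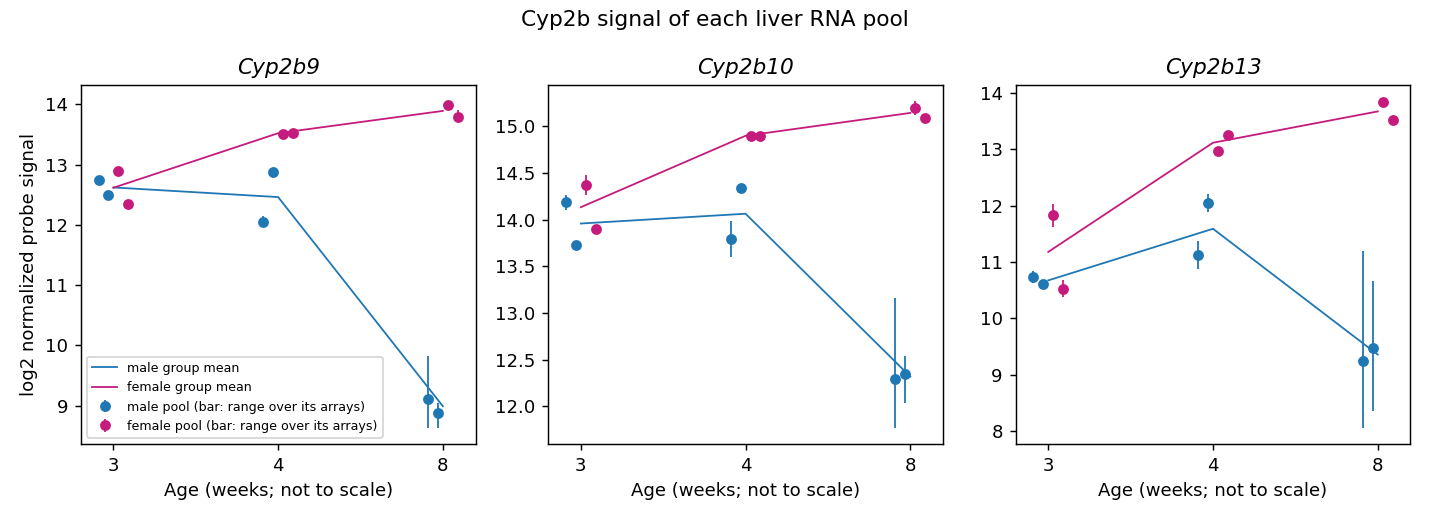
Log2 normalized signal of each pool for the 3 bright members against age in weeks, with a separate vertical scale for each probe. Points are pools (2 per group), bars the range over the arrays that carried the pool, and lines the group means. Male and female points overlap at 3 wk and lie furthest apart at 8 wk. For Cyp2b13 the F3 pools are spread, at 11.83 and 10.53, around M3 at 10.74 and 10.61. M8 of Cyp2b13 has the longest bars.

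The change with age differed between the sexes. The M8/M3 minus F8/F3 contrast was -5.24 ± 0.357 (SE) for Cyp2b9, -2.88 ± 0.201 for Cyp2b10 and -4.69 ± 0.443 for Cyp2b13 on the log2 scale (adjusted p = 0.00177, 0.00177 and 0.00439). For Cyp2b13 it was -3.73 with 6 group means, -5.33 without F8/F3 replicate 1 and -4.06 without F8/F3 replicate 2, and it was called in each case. Taken from the sex comparisons (M8/F8 minus M3/F3), the contrast was smaller in size by 0.72 for Cyp2b9, 0.57 for Cyp2b10 and 2.21 for Cyp2b13. All 3 were called, and so were 3.22% of bright probes. From 4 to 8 wk the contrast was -3.88, -2.01 and -3.01 (adjusted p = 0.00881, 0.0101 and 0.0305), with a background of 1.34%. With the shared pools in the covariance the 3 to 8 wk contrast stayed called for each gene (adjusted p = 0.00957 to 0.0235, background 1.97%), and the 4 to 8 wk contrast for Cyp2b9 alone (adjusted p = 0.0494, against 0.125 for Cyp2b10 and 0.14 for Cyp2b13, background 0.325%). Cyp2b13 also lost this call with the slide as a block (adjusted p = 0.073) and without any single array other than those of M3/F3 and F8/F3 (adjusted p = 0.0584 to 0.134).

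The size of the adult sex difference depended on the arrays used, above all for Cyp2b13. M8/F8 was also obtained around the loop as M8/M3 plus M3/F3 minus F8/F3. For Cyp2b13 the loop gave -5.14 and -4.74, against -2.66 and -2.8 measured directly. The mean gap was 2.21 by the 3 wk loop and 1.6 by the 4 wk loop. Over the 1203 tested probes called in M8/F8, the size of the gap had a median of 0.073 and a 95th percentile of 0.51 by the 3 wk loop, with 0.41 as that percentile by the 4 wk loop. Cyp2b9 had gaps of 0.72 and 0.4, and Cyp2b10 of 0.57 and 0.38, so the direct ratio was on average the smaller one in all 3 genes.

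The gap lay in the M8 reading. For Cyp2b13 the normalized M8 signal was 2340 and 1620 on the M8/F8 arrays, 266 and 328 on the M8/M3 arrays, and 358 and 690 on the M8/M4 arrays. On average it was 2.34 log2 units higher beside F8 RNA than on the other arrays. The same difference was 0.67 for Cyp2b9 and 0.74 for Cyp2b10. F8 readings of these probes moved by only 0.14, 0.051 and -0.015 for Cyp2b9, Cyp2b10 and Cyp2b13. Among 86 probes called with a female signal over 4-fold above the male one, the M8 difference had a median of 0.075 and a 95th percentile of 1.03. The M8/F8 and M8/M3 arrays were scanned on the same day, and the cause of the gap was not tested.

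**Figure D3:**
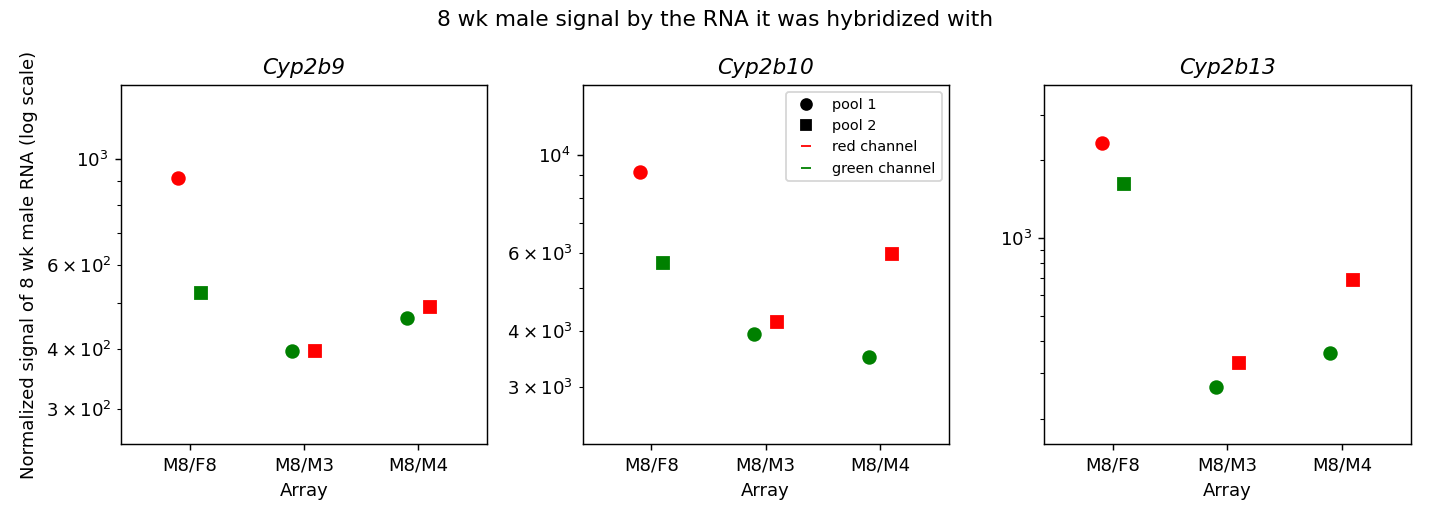
Normalized signal of 8 wk male RNA (log scale, separate for each probe) on the arrays it shared with F8, M3 or M4 RNA. Circles and squares are pools 1 and 2, and colours give the dye channel; for Cyp2b13 the M8/F8 readings of 2340 and 1620 lie above the other 4, which run from 266 to 690.

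Cyp2b19 was well above background in 0 of 28 channel readings, with processed signals from 1.65 to 11.3 (median 3.73). Its ratio was recorded as exactly 0 on 8 of 14 arrays. Of the keratin genes of the epidermis, Krt5 was well above background in 8 of 28 readings (median signal 5.72) and Krt14 in 20 of 28 (median signal 17.6). Cyp2b23 was well above background in 3 of 28 readings, at 10 in M4, 17.4 in F3 and 14.2 in F4, each of them in the green channel of a replicate 2 array scanned on the second day. The other 25 readings were not well above background, no group had both of its arrays of a comparison above it, and no fold is given for either gene.

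**Figure D4:**
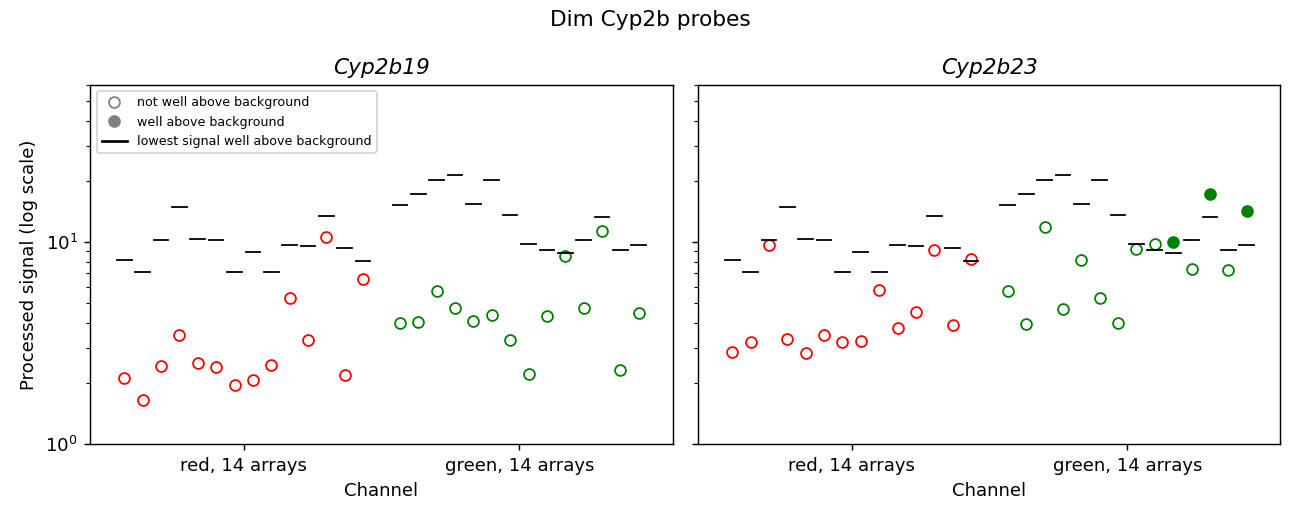
Processed signal of the Cyp2b19 and Cyp2b23 probes in the red and green channels of the 14 arrays (log scale). Filled points were well above background and short lines mark the lowest signal of any probe well above background in that channel; Cyp2b19 has 0 filled points and Cyp2b23 has 3.

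The Cyp2b genes share their cluster on chromosome 7 with other Cyp2 subfamilies, of which 7 of 8 listed genes had a probe. In M8/F8, 3 of these 7 were called lower in males and 1 higher, with 6.31% of all bright probes called. Cyp2a22 fitted at -4.05, Cyp2g1 at -2.44 and Cyp2a4, a steroid hydroxylase, at -1.95, whereas Cyp2f2 fitted at 1. Cyp2a22 was well above background in 5 of 6 M8 readings, and its lowest signal in any reading was 16, so the size of its M8 ratios is uncertain. Among the Cyp2 genes with a probe, the 3 bright Cyp2b genes follow each other along the chromosome, between Cyp2s1 (log2 M8/F8 of -0.17, not called) and Cyp2a4. In F8/F3, 3 of the 7 were called higher and 0 lower (10.8% of bright probes called), and in M8/M3, 2 were called lower and 1 higher (16.8%). Cyp2a4 and Cyp2g1 rose in F8/F3, with values of 2.47 and 2.06, and had M8/M3 values of 0.14 and -0.59 that were not called. Cyp2f2 rose in both sexes (0.95 in F8/F3 and 2.12 in M8/M3). Cyp2a22 (-4.56) and Cyp2s1 (-0.8) fell in M8/M3, and neither was called in F8/F3, where Cyp2a22 fitted at -0.68. Thus no neighbour with a probe was called both lower in M8/M3 and higher in F8/F3, although the Cyp2g1 ratios had these directions. The 3 to 8 wk interaction of sex and age was called lower in 3 of the 7 neighbours and higher in 1 (3.22% of bright probes called). In M4/F4, 3 of the 7 were called lower and 0 higher (1.44%). With the shared pools in the covariance, only Cyp2b13 of the Cyp2b genes kept its F8/F3 call. The medians of the 7 neighbours in M8/F8 and F8/F3 were -0.17 and 0.55, against 0.0066 and 0.022 over all tested probes.

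**Figure D5:**
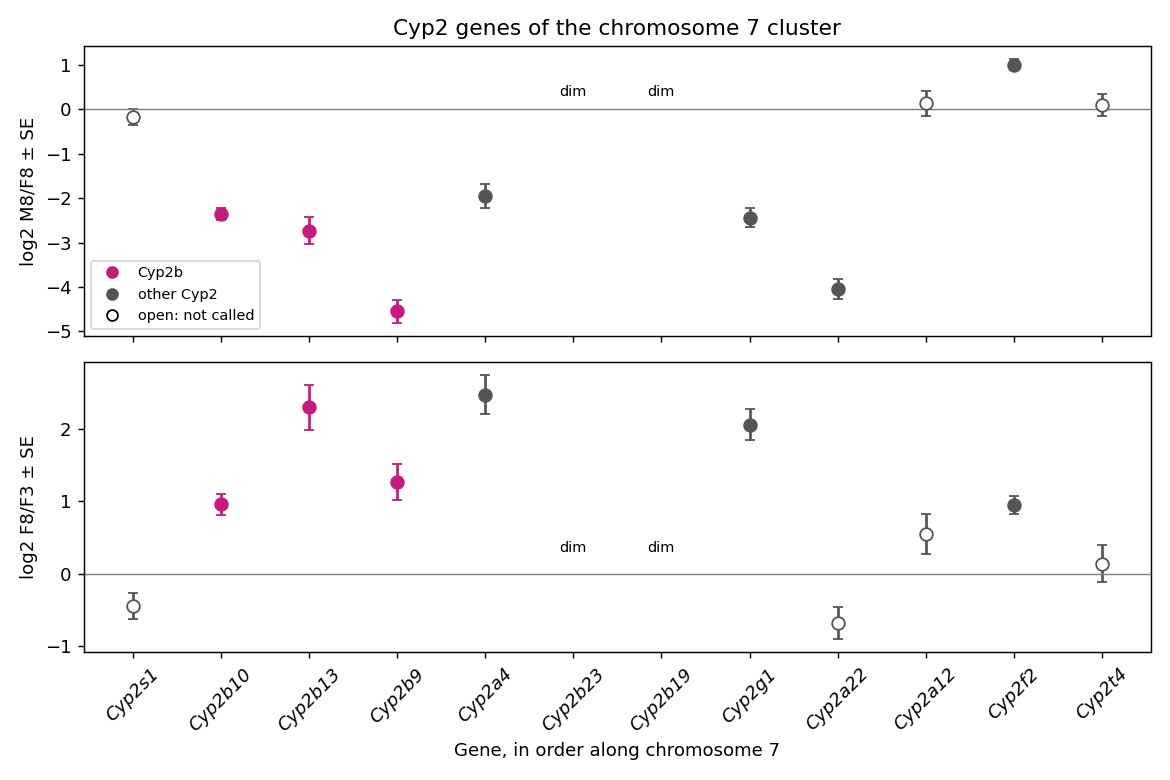
Fitted log2 M8/F8 (top) and F8/F3 (bottom) ratio ± SE for Cyp2 genes with a probe, in gene order along chromosome 7 and not to scale. Filled points were called and open points were not; the 3 bright Cyp2b genes are below 0 on top, from -4.55 to -2.36, and above 0 at the bottom, from 0.96 to 2.3.

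Of 8 genes of the CAR and PXR axis, which senses foreign compounds, 1 was called in M8/F8 and 2 in F8/F3, where 6.31% and 10.8% of bright probes were called. Nr1i3, which encodes CAR, fitted at -0.62 in M8/F8 and 0.82 in F8/F3, and at 0.49 in M8/M3, below the 1.5-fold threshold. Nr1i2, which encodes PXR, was called in no comparison and fitted at -0.28 in M8/F8. Ppargc1a, a coactivator, was called in M4/F4 (-1.1), M8/M4 (0.81) and F8/F3 (0.82). The interaction of sex and age was not called for Nr1i3 (-0.34, adjusted p = 0.19).

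Of 12 other genes known as targets of CAR, 6 were called lower and 0 higher in M8/F8 (6.31% of bright probes called), with a list median of -0.56 against 0.0066 over all tested probes. They were the bile acid and steroid uptake carrier Slco1a4 (-1.74), the aldo-keto reductase Akr1b7 (-1.77), the first enzyme of heme synthesis Alas1 (-1.57), P450 reductase Por (-0.94), Cyp2c29 (-0.93) and Gstt1 (-0.7). In F8/F3 (10.8% of bright probes called) the list split into 2 called higher and 2 called lower, and its median was 0.14 against 0.022. In males 4 were called lower and 2 higher in M8/M3 (16.8% of bright probes called, list median -0.37 against 0.016), and 3 lower and 0 higher in M8/M4 (10.1%, list median -0.5 against 0.016). Alas1 fell in both sexes (-2 in M8/M3 and -0.93 in F8/F3), unlike the Cyp2b genes. Of 6 genes that pass or bind electrons for P450 enzymes, Por was the 1 called in M8/F8, with 6.31% called among all bright probes, and Cyb5a, Cyb5b and Cyb5r3 were called in none of the 7 comparisons.

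Among 10 regulators of the growth hormone response, 1 was called in M8/F8, a share near the 6.31% of all bright probes. This was Cux2, a repressor of male-biased genes known from female liver, which was called lower in M4/F4, M8/F8, M8/M3 and M8/M4 and higher in F8/F3. It was well above background in 1 of 6 M8 readings and in all F8 readings, so its M8 values have little meaning as a level. Stat5b, Stat5a, Socs2, Cish, Bcl6, Hnf4a, Foxa2 and Onecut1 were called in none of the 7 comparisons. Ghr, the growth hormone receptor, was called in M8/M3 (0.61).

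The genes whose ratios were most like those of a member over the 14 arrays were taken from 3538 named genes called in at least 1 comparison. Pearson's r with Cyp2b9 was 0.994 for Acot3 and 0.986 for Acot4, which are acyl-CoA thioesterases, and 0.985 for Cyp3a44, another P450. Acot3 also led for Cyp2b10 (r = 0.982), followed by Clec9a (0.975) and Acss3 (0.974). For Cyp2b13 the highest values were 0.941 for the sulfotransferase Sult3a1, 0.937 for Aldh1b1 and 0.933 for Cyp2c29. The members correlated with each other at 0.986 (Cyp2b9 with Cyp2b10), 0.96 (Cyp2b10 with Cyp2b13) and 0.933 (Cyp2b9 with Cyp2b13). Arrays that share pools underlie every one of these values.

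Markers of other cell types moved with some of the same comparisons, and their part in the Cyp2b values was not tested. Each list is short, and the shares of all bright probes called were 1.44% in M4/F4, 6.31% in M8/F8, 10.8% in F8/F3, 16.8% in M8/M3 and 10.1% in M8/M4. None of 4 hepatocyte markers was called in M8/F8. Of 3 Kupffer cell markers 2 were called lower in M8/F8 (Clec4f at -0.59 and Adgre1 at -0.65), and their summed signal was 9740 to 14400 in M8 and 15700 to 23400 in F8. Of 3 erythroid genes 1 was called higher in M8/F8, the heme synthesis enzyme Alas2 (1.89), and the summed signal was 8830 to 12700 in M8 and 1950 to 3310 in F8. In M4/F4 Alas2 was again the 1 of 3 erythroid genes called higher (0.78), the summed signal was 3760 to 5480 in M4 and 2160 to 3420 in F4, which did not overlap, and 0 markers of the hepatocyte, Kupffer cell, stellate cell, bile duct and endothelial lists were called. In F8/F3, in which the Cyp2b genes were higher, 2 of 3 erythroid genes and 1 of 3 stellate cell and fibroblast genes were called lower and none higher. In M8/M3 and in M8/M4, in which the Cyp2b genes were lower, 1 of 4 hepatocyte markers was called lower (Alb at -0.71 and -0.68) and 1 higher (Serpina1c at 0.91 and 0.65). Of the Kupffer cell markers 1 of 3 was lower in each (Adgre1 at -0.86 and -0.92), with a summed signal of 11200 to 18500 in M3 and 15200 to 20300 in M4. Col1a1, a collagen gene, was the 1 of 3 stellate cell and fibroblast genes called lower in each (-2.25 and -1.82), with a summed signal of 31200 to 55900 in M3, 33600 to 51800 in M4 and 27900 to 37700 in M8. Of the erythroid genes 1 was called higher and 2 lower in each, and the summed signal was 2620 to 5250 in M3. Of 3 bile duct genes 2 were called lower in M8/M3 and 1 in M8/M4, with a summed signal of 186 to 271 in M3, 181 to 317 in M4 and 145 to 296 in M8, and 0 of 3 endothelial genes were called in either.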

How the data were processed

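The authors amplified pooled CD-1 liver RNA, labelled it with Alexa dyes, and scanned it with Agilent Feature Extraction, which subtracted background and applied linear and LOWESS dye normalization. The deposited values are log10 ratios of red over green, with modelled errors, processed signal intensity and median intensity per spot. They were turned to log2 and oriented by dye, and the spots of a probe were averaged. RefSeq accessions named 26055 probes. Ratios of the 14 arrays were fitted in R 4.3.3 with limma 3.58.1 and data.table (version 1.17.8), with 7 comparison coefficients and a dye term. P-values were adjusted by Benjamini-Hochberg over all probes and the 7 comparisons, and within each added contrast. A call needed an adjusted p below 0.05, a ratio over 1.5-fold, and 1 group well above background on both arrays. Pool signals were scaled between arrays (Aquantile). Promoter windows were aligned with Biopython. The test was checked on simulated data with independent noise on each array, so the check does not cover pools shared between arrays.

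Members and gene lists were chosen with earlier results of these data known; all members were named, called list genes were named (up to 6 per list, by size in M8/F8 or M8/M3), and 3 most similar genes were named per called member. Alternatives comprised other models (6 group means, slide or replicate block, shared pools in the covariance), normexp (offset 50) with loess, thresholds, error weighting and leaving out each array. Same-numbered arrays seem to share pools, by their correlated replicate differences, only where their comparisons share a group, so the replicate number was not used as a block. Precision is limited by 2 arrays per comparison.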

Additional observations from a re-analysis of the deposited data

Results flagged for a closer look

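The change with age differed between male and female liver for the 3 bright members of the 5, by the test of the difference itself. From 3 to 8 wk the male minus female log2 difference was -5.24 for Cyp2b9, -2.88 for Cyp2b10 and -4.69 for Cyp2b13. From 4 to 8 wk it was -3.88, -2.01 and -3.01, of which the last pair lost their call once the covariance held the shared pools. Each of these differences is smaller in size when it is taken from the comparisons of the sexes, by the mean loop gap. From 3 to 8 wk the gap was 0.72 for Cyp2b9, 0.57 for Cyp2b10 and 2.21 for Cyp2b13, and from 4 to 8 wk it was 0.4, 0.38 and 1.6.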

How the results depend on the processing

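Of 117 member counts under other settings, 111 stayed within 1.5 times the reported value. A fall from 3 members to 2 passes this rule. The counts include settings that could not remove a call, namely no fold threshold, no brightness filter and any probe of a member. For M4/F4 the count of 3 became 1 with the slide block, 0 with shared pools in the covariance and 0 with adjustment within each comparison. With shared pools it became 1 in F8/F3 and 1 for the 4 to 8 wk interaction. The error-weighted average gave 2 members in F4/F3 in place of 0. Leaving out 1 array gave 0 to 2 members in M4/F4, so each array was needed for all 3 calls, 1 to 3 in F8/F3 (1 without F8/F3 replicate 2) and 2 to 3 in the 4 to 8 wk interaction, and the other counts kept their value. With the replicate block Cyp2b9 was no longer called in M4/F4 (log2 ratio -1.06, adjusted p = 0.0541), and no other call of a member changed; the differences between replicates correlated between comparisons at -0.53 to 0.679, so the numbers did not pair the arrays throughout. Each member had 1 probe, so counting any probe changed nothing. No member ratio that was called changed sign. The size of the Cyp2b13 ratios that involve M8 depended on the arrays, as its M8 signal did. The calls in M8/F8, M8/M3 and M8/M4 held under every alternative. The dye and the pool differ together between the 2 arrays of a comparison and cannot be told apart on a single array.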
